A study of Mus musculus with 6 samples.

Results

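Ly6d, Slpi, Sprr1a, Cib3, Cd63, Lgals1 and Tmsb10 are 7 genes that were near silent in the liver cells of normal fed mice and reached 124 to 859 TPM in mice fed DDC. TPM is a transcript's abundance per unit length, scaled so that each sample has the same sum, so levels of different genes can be compared. The 7 genes were picked by their rise in the DDC fed samples over the normal fed samples, and they are 7 of the 48432 genes in the deposited table. Because that difference chose them, it is described here and not tested. Other genes rose more, so the 7 are strongly DDC-induced genes and not the strongest.

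The study measured polyadenylated RNA of FVB mouse hepatocytes, the main cell type of the liver, in 3 groups of 2 samples. DDC fed mice were adults given DDC in the diet for 4 weeks. The E18 samples came from embryos at day 18 of gestation, with the livers of about 8 embryos pooled in each. Normal fed mice were adults on chow and are the controls. All groups share the FVB strain, and no group carries a named allele or transgene. Whether the adult samples of a diet are from separate mice is not in the labels, so p-values measure only the spread between these samples, which may be technical. Samples are called 0 and 1 within each group, as the table numbers them.

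DDC is a porphyrin-inducing compound. It blocks the last step of heme synthesis, protoporphyrin collects in hepatocytes and bile, and both hepatocytes and bile ducts are injured, with new ductules, inflammation and scarring. The 7 genes act in different places. Ly6d is a small glycolipid-anchored surface protein of the Ly6 family, known from B-cell precursors and stratified epithelia. Slpi is a secreted inhibitor of neutrophil serine proteases, and Sprr1a is a precursor of the cornified envelope of keratinocytes that is also known from injured neurons. Cib3 belongs to a family of calcium and integrin binding proteins. Cd63 is a membrane protein of late endosomes, lysosomes and exosomes, Lgals1 is galectin-1, a sugar-binding lectin, and Tmsb10 is a beta-thymosin that binds actin monomers.

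Of the 7 genes, 5 have promoter windows in the RefSeq table for GRCm38.p6, which give 250 bases before and 50 after each annotated start, 7 windows in all. The windows of Sprr1a and Cib3 are shown because both genes were high in DDC fed samples and low or listed at 0 in the other groups. The Sprr1a window lies at chr3:92485832-92486131 on the minus strand. The Cib3 window lies at chr8:72212788-72213087, also on the minus strand. Capitals mark matches to the 4 motifs searched on both strands.
Sprr1a: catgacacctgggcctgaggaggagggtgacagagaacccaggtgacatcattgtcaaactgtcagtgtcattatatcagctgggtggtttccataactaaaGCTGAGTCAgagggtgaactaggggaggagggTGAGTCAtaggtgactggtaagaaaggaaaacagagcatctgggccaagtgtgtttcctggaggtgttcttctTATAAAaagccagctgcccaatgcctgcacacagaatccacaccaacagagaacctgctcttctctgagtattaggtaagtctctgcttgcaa
Cib3: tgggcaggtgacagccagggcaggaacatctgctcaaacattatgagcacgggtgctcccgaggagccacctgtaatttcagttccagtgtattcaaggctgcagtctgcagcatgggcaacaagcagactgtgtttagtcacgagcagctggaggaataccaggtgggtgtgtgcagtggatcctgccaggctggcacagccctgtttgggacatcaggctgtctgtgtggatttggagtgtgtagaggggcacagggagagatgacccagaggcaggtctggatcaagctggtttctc
The motifs were AP-1 (TGANTCA), the TATA box (TATAAA), TEAD (GGAATG) and the antioxidant response element (TGACNNNGC). The Sprr1a window held 2 AP-1 matches, whose first bases lie at -146 and -116 from the annotated start, and 1 TATA box match at -43. It also held 1 antioxidant response element match at -148 on the reverse strand, which overlaps the first AP-1 match and forms the longer run of capitals with it. The windows of Slpi, Cib3, Cd63 and Tmsb10 held none of these letters. The Slpi window (chr2:164356458-164356757) and the Cd63 window (chr10:128909095-128909394) lie inside the annotated gene spans given below. The outer starts of those genes were not searched. Among 32851 RefSeq promoter windows of 300 bases, 7.81% held the AP-1 letters, 13.6% the TATA box, 14.7% TEAD and 12.4% the antioxidant response element. A match describes letters only, and no binding was measured.

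Ly6d lies at chr15:74762056-74763620 on the minus strand (GRCm38, GENCODE M21). Ly6d measured 781 and 709.6 TPM in DDC fed samples, 2.57 and 5.35 TPM in E18 samples, and 0.593 and 0.791 TPM in normal fed samples. Both DDC fed samples stood far above all others, and no pair of groups overlapped. The means were 745 ± 50.7 TPM in DDC fed, 3.96 ± 1.96 TPM in E18 and 0.692 ± 0.140 TPM in normal fed samples (SD, n = 2 each). The DDC fed mean was 1077 times the normal fed mean, and the difference on the log2(TPM + 1) scale was 8.79 ± 0.29 (SE). Ly6d was the 203rd highest gene by mean TPM in DDC fed samples and held place 11167 in normal fed samples.

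Slpi lies at chr2:164354070-164389095 on the minus strand. It measured 859 and 723 TPM in DDC fed samples, 65.8 and 81.6 TPM in E18 samples, and 1.34 and 1.21 TPM in normal fed samples. The 3 groups formed separate steps, with E18 between the adults. Slpi had the highest DDC fed mean of the 7 genes, 791 ± 96.4 TPM, against 1.28 ± 0.094 TPM in normal fed samples (SD, n = 2 each), a ratio of 619. The DDC fed values of Slpi and Ly6d overlapped, so the order of these highest members is not beyond their spread.

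Sprr1a lies at chr3:92483952-92485895 on the minus strand. It measured 265 and 305 TPM in DDC fed samples, 0.777 and 0.278 TPM in E18 samples, and 0.117 and 0.375 TPM in normal fed samples. Only the DDC fed samples were high, and the E18 and normal fed values overlapped. The DDC fed mean was 1158 times the normal fed mean, the largest such ratio of the 7, with a difference of 7.85 ± 0.24 (SE) on the log2 scale. Its low values are within the range where the unknown depth limits any ratio.

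Cib3 lies at chr8:72204335-72212837 on the minus strand. It measured 181 and 200.5 TPM in DDC fed samples, was listed at 0 in both E18 samples, and measured 0.909 and 1.57 TPM in normal fed samples. The DDC fed mean of 191 ± 13.8 TPM was 154 times the normal fed mean of 1.24 ± 0.47 TPM (SD, n = 2 each). A listed 0 may be a failed estimate: Alb, the gene of serum albumin, is at 0 in all 6 samples. In the same table, 44 genes that reach 100 TPM in some sample are at 0 in both DDC fed samples, 12 in both E18 samples and 57 in both normal fed samples.

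Cd63 lies at chr10:128900989-128912822 on the plus strand. It measured 370.4 and 381 TPM in DDC fed samples, 186 and 173 TPM in E18 samples, and 1.55 and 1.13 TPM in normal fed samples. DDC fed samples were highest, E18 samples stood at 47.8% of their mean, and normal fed samples were near 1 TPM. The DDC fed mean was 280.4 times the normal fed mean, with a log2 difference of 7.34 ± 0.19 (SE).

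Lgals1 lies at chr15:78926725-78930465 on the plus strand. It measured 199.8 and 214 TPM in DDC fed samples, 210.4 and 254 TPM in E18 samples, and 2.12 and 2.04 TPM in normal fed samples. The DDC fed and E18 values overlapped, and all 4 stood far above both normal fed samples. The DDC fed mean was 99.5 times the normal fed mean. In the order of DDC fed levels, Lgals1 and Cib3 overlapped, while Cd63 and Sprr1a, above them, and Tmsb10, below them, did not overlap with a neighbour.

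Tmsb10 lies at chr6:72957347-72958748 on the minus strand. It measured 124 and 144 TPM in DDC fed samples, 1019 and 946 TPM in E18 samples, and 2.57 and 2.02 TPM in normal fed samples. E18 samples were highest by far, and the groups did not overlap. The DDC fed mean was 58.3 times the normal fed mean, the smallest ratio of the 7 genes. Tmsb10 was the 144th highest gene in E18 samples and held place 1209 in DDC fed samples.

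**Figure D1:**
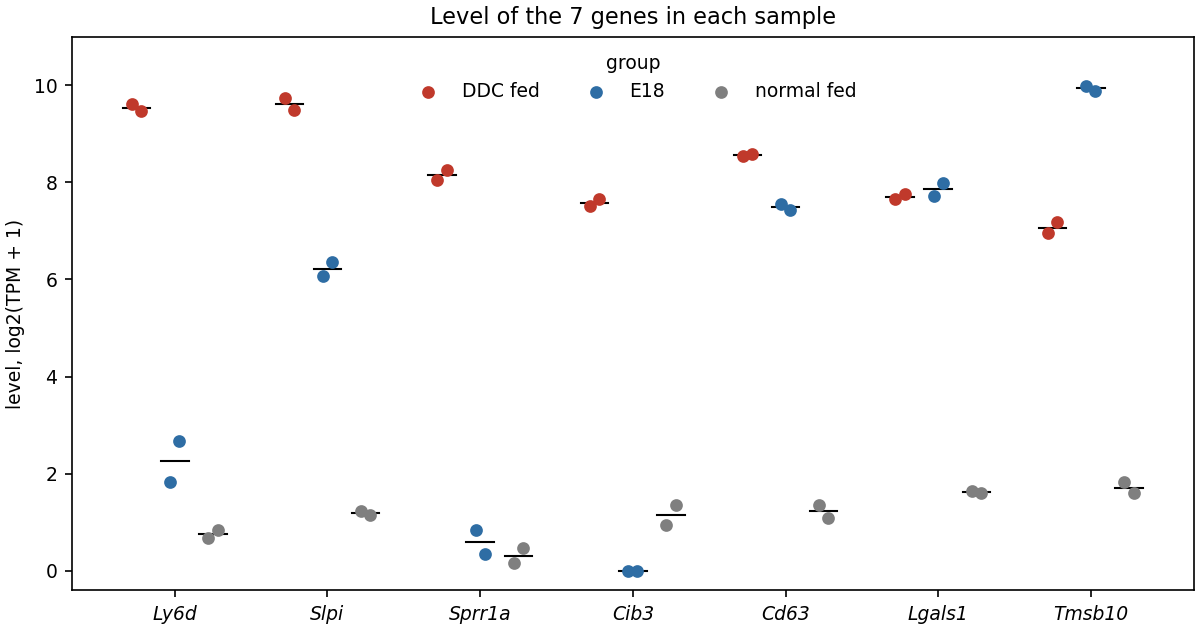
Level of each of the 7 genes in every sample, as log2(TPM + 1), with DDC fed, E18 and normal fed samples from left to right within a gene; points are samples and black bars are means of 2. All 7 genes are high in DDC fed samples and near the floor in normal fed samples, while their E18 levels span the whole range, from Cib3 listed at 0 to Tmsb10 at 1019 and 946 TPM.

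Summed over the 7 genes, the DDC fed samples held 2780 and 2677 TPM, the E18 samples 1485 and 1461 TPM, and the normal fed samples 9.21 and 9.14 TPM. All 7 were at or above 100 TPM in both DDC fed samples, against 3 of 7 in both E18 samples and 0 of 7 in both normal fed samples. The second DDC fed sample lay between 0.841 and 1.16 times the first for every member. The E18 pair differed more for the low members, by 2.08 times for Ly6d and 0.358 times for Sprr1a.

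By the size of the log2 difference, DDC fed minus normal fed, the 7 genes held places 6 (Ly6d), 8 (Slpi), 11 (Sprr1a), 14 (Cd63), 22 (Cib3), 26 (Lgals1) and 41 (Tmsb10) among the 14307 genes that reached 1 TPM in 2 or more of the 6 samples and were tested. All 7 members passed this filter, and all reached 1 TPM in both DDC fed samples, where they were chosen to be high. Sprr1a and Cib3 passed only because of the DDC fed samples. Ly6d, Slpi, Cd63, Lgals1 and Tmsb10 also reached 1 TPM in both E18 samples. Their log2 differences ran from 5.36 to 8.79 with a median of 7.34, against a median of 0.45 over all genes tested. Of all genes tested, 34.2% were higher and 3.07% lower in DDC fed samples at an adjusted p under 0.05 (limma, Benjamini-Hochberg), and 62.4% had higher DDC fed values with no overlap. The rule used this contrast, so nothing is read from the members' 7 of 7. The split of these calls depends on scaling: 4896 genes were higher and 439 lower on TPM as deposited, against 2909 and 1700 with median-ratio scaling, which moved the median of all genes to -0.01.

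Other genes stood between the members in that ranking. Above Ly6d stood the acute-phase or secretory genes Serpina3k, Mup3, Serpina1c, Lcn2 and Serpina1a, of which Serpina3k, Mup3, Serpina1c and Serpina1a were listed at 0 in both normal fed samples. Next below Ly6d came Cyp2a4, a cytochrome P450 (8.65 on the log2 scale), and next below Slpi came Serpina3m, of the serine protease inhibitor superfamily (8.31), listed at 0 in normal fed samples. Sprr1a lay between Ubd, a ubiquitin-like modifier (7.86), and S100a11, a calcium-binding protein (7.67). Cib3 lay between Spink1, a trypsin inhibitor (6.59), and Lpl, lipoprotein lipase (6.39). Tmsb10 lay just inside Rragd, a GTPase of lysosomal nutrient sensing (5.34), and just outside Cybb, a subunit of the phagocyte oxidase (5.43).

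**Figure D2:**
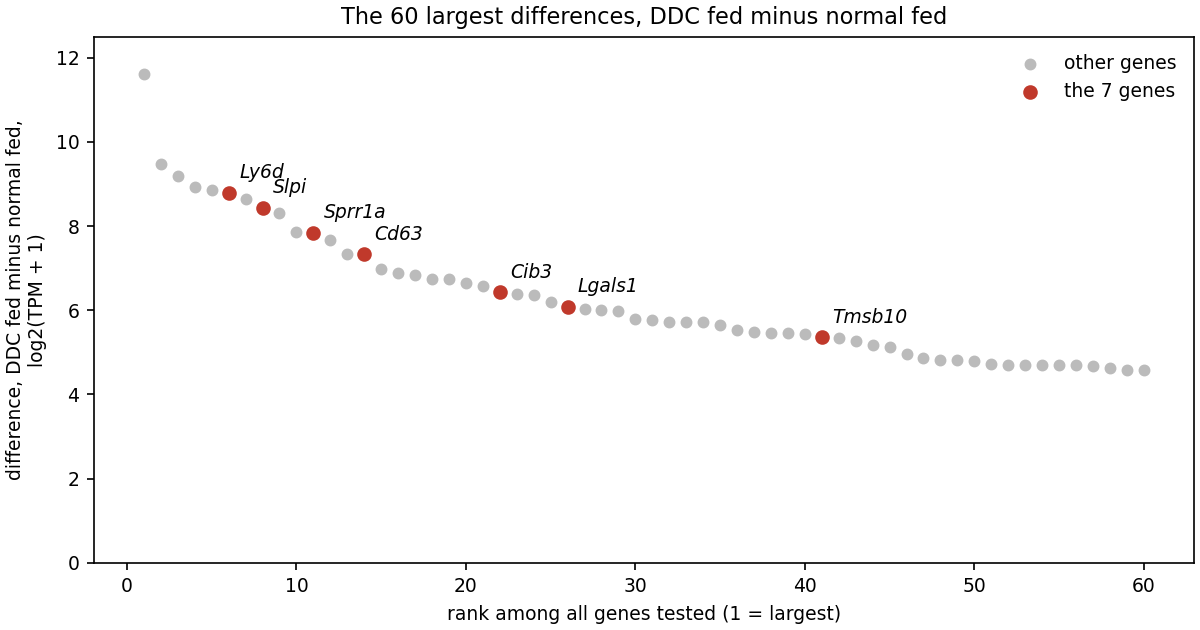
The 60 largest differences between DDC fed and normal fed samples on the log2(TPM + 1) scale, in order of rank, with the 7 genes in red and other genes in grey. Ly6d stands at place 6 with 8.79 and Tmsb10 at place 41 with 5.36, so the 7 are spread among other genes with rises of similar size.

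The E18 samples played no part in choosing the genes, and they separated the 7. Ly6d stood at 0.531% and Sprr1a at 0.185% of their DDC fed mean in E18 samples. Cib3 was listed at 0 there, which may be a low level or a failed estimate. Slpi stood at 9.32% of its DDC fed mean, Cd63 at 47.8%, Lgals1 at 112% and Tmsb10 at 735%. The members thus held genes near the floor in E18 samples, such as Ly6d and Sprr1a, and genes as high there as in DDC fed samples or higher, Lgals1 and Tmsb10.

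Against normal fed samples, 5 of the 7 genes rose in E18 samples, 1 fell and 1 did not pass the test (limma across all genes, Benjamini-Hochberg adjusted p under 0.05). Over all genes tested, 63% rose and 12.7% fell in this comparison, or 9020 and 1815 genes, against 5456 and 4520 with median-ratio scaling. The members' median log2 difference was 5.03, against 1.06 over all genes. The comparison shares the normal fed samples that were used to choose the genes for low values there.

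Tmsb10 rose by 8.23 ± 0.20 (SE) on the log2 scale in E18 samples (adjusted p = 1.03e-06), a TPM ratio of 428. Cd63 rose by 6.27 ± 0.19 (adjusted p = 1.42e-06), a ratio of 134, and Lgals1 rose by 6.24 ± 0.19 (adjusted p = 1.45e-06), a ratio of 112. Slpi rose by 5.03 ± 0.21 (adjusted p = 2.25e-06), a ratio of 57.7. These 4 genes were higher in both E18 samples than in either normal fed sample. In this comparison 63% of all genes tested rose, and the members were chosen for low normal fed values.

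Ly6d rose in E18 samples by 1.49 ± 0.29 (adjusted p = 0.00316), from limma over all genes, and stayed at or below 5.35 TPM. That call depended on scaling: with median-ratio scaling, which removes the general shift of E18 samples, the Ly6d difference was 0.77 (adjusted p = 0.0555), and with quantile normalization it was -0.26 (adjusted p = 0.449). Sprr1a differed by 0.28 ± 0.24 (adjusted p = 0.324, limma), with E18 and normal fed values that overlapped, and took the opposite sign under median-ratio scaling (-0.05), quantile normalization (-0.90, adjusted p = 0.0114) and the exon-length correction (-0.22). Cib3, listed at 0 in E18 samples, passed as lower than the normal fed samples (adjusted p = 0.00267, limma), a call that rests on those listed zeros. With a pseudocount of 5 TPM in place of 1 it no longer passed (adjusted p = 0.0824).

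Between DDC fed and E18 samples, 5 of the 7 genes were higher in DDC fed samples, 1 was lower and 1 did not pass. Over all genes tested, 17.7% were higher and 47% lower in DDC fed samples, and the median difference was -0.55. That is 2532 and 6723 genes, against 3925 and 4945 with median-ratio scaling. The members' median was 3.41. The DDC fed samples used here are those that chose the genes for high values.

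The members were chosen for high DDC fed values, so the p-values of those higher in DDC fed samples are a description, not independent evidence. Sprr1a was higher in DDC fed samples by 7.56 ± 0.24 (adjusted p = 2.04e-06, limma), 540 times the E18 mean. That ratio rests on E18 values of 0.777 and 0.278 TPM, near the floor. Ly6d was higher by 7.29 ± 0.29 (adjusted p = 3.63e-06), or 188 times, and Slpi by 3.41 ± 0.21 (adjusted p = 1.79e-05), or 10.7 times. Cib3 also passed (adjusted p = 1.78e-06), with no ratio since it is listed at 0 in E18 samples. Cd63 was higher by 1.06 ± 0.19 (adjusted p = 0.00269), or 2.09 times.

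Tmsb10 went the other way, lower in DDC fed samples by a log2 difference of -2.87 ± 0.20 (adjusted p = 3.22e-05), at 0.136 times the E18 mean. Lgals1 differed by -0.16 ± 0.19 (adjusted p = 0.49), with the sign turned by median-ratio scaling (0.35) and by the exon-length correction (0.16). All p-values of this comparison come from limma over all genes, adjusted by Benjamini-Hochberg.

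Other genes chosen in the same way are set beside the members as a description. Of the genes tested, 23 (0.161%) were at or above 100 TPM in both DDC fed samples and below 3 TPM in both normal fed samples, thresholds chosen after the values were seen and on the contrast that chose the members. They hold all 7 members and 16 others. Of the 16, Serpina3k, Mup3, Serpina1a, Serpina1c and Serpina3m are in the class through a listed 0 in both normal fed samples, which may be a failed estimate. Of the other 11, 4 stood below 2% of their DDC fed mean in E18 samples, 1 between 2% and 20%, and 6 at 20% or more, with a median of 29.1%.

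Among those below 2% was the detoxification gene Cyp2a4 (1290 and 767 TPM in DDC fed, 2.06 and 0.788 TPM in E18, 1.65 and 1.31 TPM in normal fed samples). Ubd was another, at 509.5 and 631 TPM in DDC fed samples, listed at 0 in E18 samples and at 1.138 and 1.80 TPM in normal fed samples. S100a11 was among those at 20% or more, with 372 and 398 TPM in DDC fed, 312.5 and 380.3 TPM in E18, and 1.01 and 0.784 TPM in normal fed samples. Anxa2, an annexin that binds membranes, was there too, at 282 and 297 TPM in DDC fed, 264 and 248 TPM in E18, and 2.62 and 0.789 TPM in normal fed samples.

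**Figure D3:**
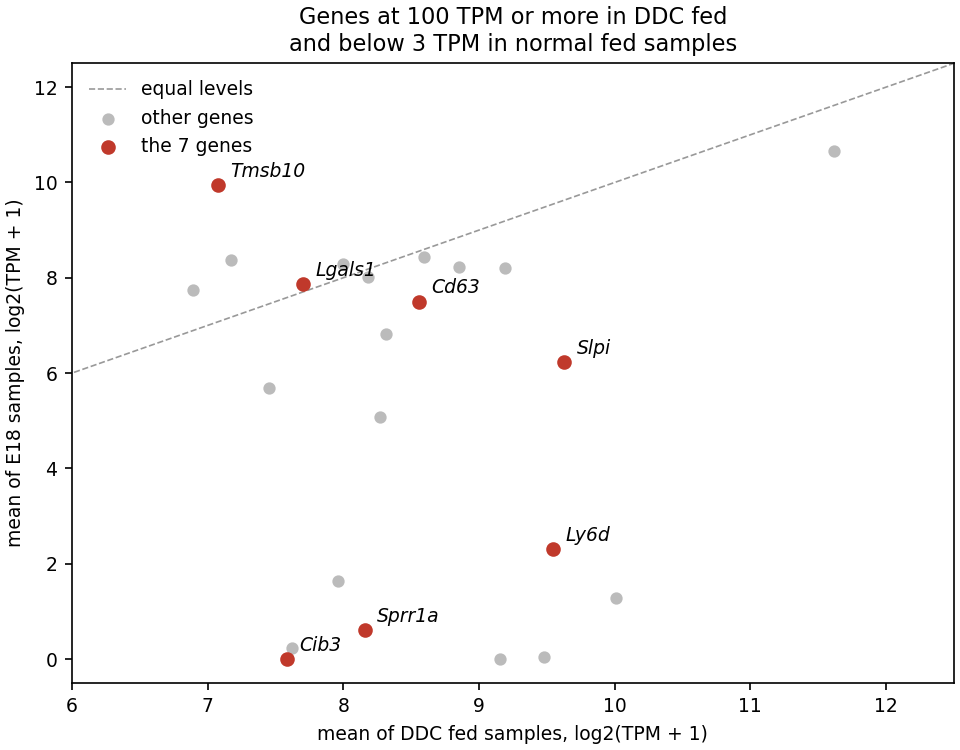
Mean of E18 samples against mean of DDC fed samples, both as log2(TPM + 1), for the 23 genes at or above 100 TPM in both DDC fed and below 3 TPM in both normal fed samples; the dashed line marks equal levels. Cib3, Sprr1a and Ly6d lie near the bottom, Slpi in between, Cd63 and Lgals1 near the line and Tmsb10 above it.

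The likeness of 2 genes was measured as the root-mean-square difference of their centred log2 levels over the 6 samples, where 0 is an identical pattern. Among the members, the closest pairs were Cd63 and Lgals1 (0.60), Ly6d and Sprr1a (0.65), and Sprr1a and Cib3 (0.69). The most unlike pair was Cib3 and Tmsb10 (4.70). Outside the 7, Sprr1a was closest to Ifi27l2b, an interferon-inducible gene (0.53), Cyp2a4 (0.59) and Ubd (0.76). Ly6d was closest to the same Ifi27l2b (0.85) and Cyp2a4 (0.88), and to the major urinary protein gene Mup3 (0.93). Ubd was listed at 0 in both E18 samples and Mup3 in both normal fed samples, so these likenesses rest partly on listed zeros.

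Cib3 was closest to Ubd (0.71), the matricellular gene Ccn5 (0.81) and the imprinted RNA H19 (0.83). Cib3, Ubd and H19 were listed at 0 in both E18 samples, which may be failed estimates. Their likeness rests partly on those zeros. Slpi was closest to Anxa5, another annexin (0.74), Mfge8, a secreted bridge for clearing dying cells (0.77), and Serpina3m (0.91). Cd63 was closest to Anxa2 (0.42), Serpina3m (0.44) and S100a11 (0.54). Serpina3m was listed at 0 in both normal fed samples, so its likeness to Slpi and Cd63 rests partly on listed zeros. Lgals1 was closest to B4galnt1, a ganglioside synthase (0.27), Cd14, a receptor for bacterial lipopolysaccharide (0.30), and Cybb (0.31). Tmsb10 was closest to Top2a, a topoisomerase of dividing cells (0.43), the imprinted RNA Rian (0.61) and Lyz2, lysozyme of myeloid cells (0.65).

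Relatives and partners of each member were then counted in DDC fed against normal fed samples, with the members left out, where 34.2% of all genes tested rose and 3.07% fell. For the Ly6 and uPAR domain family, 16 of 32 relatives passed the expression filter, 8 rose and 0 fell, with a median log2 difference of 0.57; with median-ratio scaling 8 rose and 1 fell. Ly6e, a broadly expressed Ly6 protein, had the highest levels, 3621 and 3020 TPM in DDC fed, 309 and 369 TPM in E18, and 246 and 106 TPM in normal fed samples, a rise of 4.34 ± 0.41 (limma, adjusted p = 4.16e-04). Ly6c1 rose by 2.56, Ly6k by 2.18, Lynx1 by 1.15 and Plaur, the urokinase receptor, by 2.16. Ly6c1, Ly6k and Lynx1 reached 1 TPM in DDC fed samples only, so they passed the filter through the group where they are high; of the other 13 relatives tested, 5 rose. None of Ly6c1, Ly6k, Lynx1 and Plaur exceeded 6.05 TPM in a DDC fed sample, against 781 TPM for Ly6d.

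The Ly6 genes include Ly6d's neighbours on the chromosome. Within 250 kb of Ly6d, 8 of 20 annotated coding genes passed the filter and all 8 rose in DDC fed samples, Ly6e most, also with median-ratio scaling. Of these, Lynx1, Ly6k, Gml and Gml2 passed the filter through the DDC fed samples alone, so their rise was fixed by the filter, and the remaining 4 all rose. Most were low: beside Ly6e, only Them6 (27.3 and 23.2 TPM in DDC fed samples) and Ly6a (12.3 and 11.2 TPM in DDC fed samples) exceeded 10 TPM. Around the other members, 3 of 8 rose near Slpi, 0 of 1 near Sprr1a, 4 of 13 near Cib3, 0 of 14 near Cd63, 5 of 15 near Lgals1 and 0 of 2 near Tmsb10. Over all 7 members that is 20 of 61, or 32.8%, near the 34.2% of all genes, and 16 of 57 without the 4 genes named.

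Among genes of the WAP domain, the protease inhibitor fold of Slpi, 6 of 7 tested rose in DDC fed samples and 0 fell. There were 20 relatives in the table, and 34.2% of all genes tested rose. The list also holds Spink1, an inhibitor of another family. Wfdc1 and Wfdc3 reached 1 TPM in DDC fed samples only, so the filter fixed their rise, and 4 of the other 5 rose. Spink1 was the largest, with 117 and 119 TPM in DDC fed, 266 and 161 TPM in E18, and 0.19 and 0.286 TPM in normal fed samples. Wfdc3 rose by 3.28, Wfdc17 by 2.33, Wfdc2 by 1.95, Wfdc1 by 1.09 and Wfdc15b by 0.79, the last reversed by quantile normalization (-0.115) and not past the threshold with median-ratio scaling (adjusted p = 0.105). Of those that rose, Spink1 and Wfdc17 (57.5 and 87.5 TPM in DDC fed samples) were above 10.8 TPM in DDC fed samples and the others were not. The list's most abundant gene, Wfdc21, did not pass the test except without normal fed sample 0 (-1.24), with 1853 and 2110 TPM in DDC fed, 366 and 463 TPM in E18, and 2355 and 4682 TPM in normal fed samples. With median-ratio scaling 5 of the list rose.

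A list of 10 genes held neutrophil and mast cell proteases, among them the known Slpi targets Elane (neutrophil elastase) and Ctsg (cathepsin G), and Slpi's binding partner Grn. It gave 2 rises among 7 tested, Grn and Prtn3, a share near the 34.2% of all genes tested. Grn, progranulin, measured 387 and 321 TPM in DDC fed, 179 and 211 TPM in E18, and 144 and 59.5 TPM in normal fed samples (limma, adjusted p = 0.0109). Prtn3, proteinase-3, which Slpi is not known to block, measured 0.870 and 1.40 TPM in DDC fed, 837 and 1053 TPM in E18, and 0.182 and 0.195 TPM in normal fed samples (limma, adjusted p = 0.0278). Both lost their call when either DDC fed or either E18 sample was left out, with 0 of the list rising. Elane measured 0.0403 and 0.159 TPM in DDC fed, 876.5 and 1152 TPM in E18, and 0.0482 and 0 TPM in normal fed samples. Ctsg measured 0 and 0.0354 TPM in DDC fed and 296.5 and 340 TPM in E18 samples, and was listed at 0 in normal fed samples. Slpi was highest in DDC fed samples and both target enzymes in E18 samples.

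Sprr1a stood alone among its closest relatives. The table holds 14 other Sprr genes; 10 were listed at 0 in all 6 samples and none exceeded 0.092 TPM in a DDC fed sample. The Sprr2 genes are close copies, so their reads can be hard to assign. Of the whole cornified envelope list, 7 of 33 relatives were tested, 4 rose and 0 fell, where 34.2% of all genes tested rose. Ppl, periplakin, measured 39.9 and 51.5 TPM in DDC fed, 1.29 and 0.967 TPM in E18, and 1.28 and 0.429 TPM in normal fed samples, a rise of 4.68 ± 0.28. Cstb, the protease inhibitor cystatin B, rose by 3.38 to 1157 and 1330 TPM in DDC fed samples. The crosslinking enzyme Tgm2 rose by 3.29 and the desmosomal linker Dsp by 2.10.

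Cib3 differed from its named relatives. Cib1 measured 123 and 131 TPM in DDC fed, 51.8 and 59.1 TPM in E18, and 75.6 and 125 TPM in normal fed samples, and its DDC fed difference of 0.38 was not past the threshold, with the sign turned by median-ratio scaling (-0.30) and by the exon-length correction (-0.07). Cib2 fell by 1.35 on the log2 scale, to 1.15 and 1.55 TPM in DDC fed against 4.11 and 5.97 TPM in normal fed samples (limma, adjusted p = 0.00319). Cib4 was listed at 0 in all 6 samples. In the list of CIB and other calcium sensors, 13 of 23 relatives were tested, 5 rose and 2 fell. The share that rose is near the 34.2% of all genes tested, so the count says little about this list. Hpcal1 (1.89), Calm3 (1.51), Chp2 (1.44), Calm2 (1.19) and Hpca (0.53) rose, and Caln1 fell with Cib2. Hpcal1 and Hpca were not past the threshold without either DDC fed sample (lowest adjusted p = 0.0522, highest 0.0833, limma). Median-ratio scaling left 4 rises in this list, and leaving out DDC fed sample 0 or 1 left 3 or 2.

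Cd63 belongs to the tetraspanins, small membrane organisers, many of which also rose in DDC fed over normal fed samples, where 34.2% of all genes rose. Of 30 relatives, 25 were tested, 16 rose and 1, Tspan33, fell (-1.32), and 14 rose and 2 fell with median-ratio scaling. The median log2 difference was 1.17. Against E18 samples, 6 tetraspanins were higher in DDC fed samples and 14 lower, beside 17.7% and 47% of all genes tested. Their median there was -1.54. Cd63 was higher in DDC fed samples by 1.06, but it was chosen for high DDC fed values, so this contrast is only a description. Cd9 measured 290 and 295 TPM in DDC fed, 354 and 289.5 TPM in E18, and 9.29 and 14.4 TPM in normal fed samples, a rise of 4.54 ± 0.25. Tspan8 rose by 3.61, Tspan17 by 3.46, Cd53, a leukocyte tetraspanin, by 2.64 and Cd151 by 1.73. Without DDC fed sample 1, 10 tetraspanins rose, and Tspan33 did not pass without either DDC fed sample (limma, adjusted p = 0.0761 and 0.0671).

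Of 21 partners and endosomal proteins of Cd63, 19 were tested, 15 rose and 0 fell in DDC fed samples, where 34.2% of all genes rose. This count was unstable. Median-ratio scaling left 5 that rose and the exon-length correction 6, while 3 rose without DDC fed sample 0 and 4 without DDC fed sample 1. Without E18 sample 0 or 1, 6 rose. Rises over all genes tested also became fewer, 2909 with median-ratio scaling and 2532 with the exon-length correction, against 4896 on TPM as deposited. Timp1, the metalloprotease inhibitor that binds Cd63, rose by 2.95. It reached only 5.98 and 8.04 TPM in DDC fed samples, against 0.0556 and 0 TPM in normal fed samples. Flot1 rose by 2.68 and Sdcbp, syntenin-1 of exosome formation, by 1.57.

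In the list of galectins, 7 of 9 relatives of Lgals1 were tested, 4 rose and 0 fell, where 34.2% of all genes tested rose. The list also holds Lgals3bp, a galectin-3 binding protein that is not itself a galectin and is counted among the 4. Lgals3, galectin-3, measured 44.6 and 56.3 TPM in DDC fed, 107 and 137 TPM in E18, and 1.25 and 1.08 TPM in normal fed samples, a rise of 4.56 ± 0.22. Lgals3bp rose by 3.03 and Lgalsl by 1.47. Lgals9 rose by 0.86, with 478 and 495 TPM in DDC fed and 330.1 and 216 TPM in normal fed samples (limma, adjusted p = 0.0467), and its difference was 0.18 with median-ratio scaling (adjusted p = 0.563). With median-ratio scaling 3 of the list rose, and fewer than 4 did without DDC fed sample 1.

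Of 25 beta-thymosins and actin-binding relatives of Tmsb10, 24 were tested, 17 rose and 0 fell; median-ratio scaling left 10 rises, and leaving out DDC fed sample 0 or 1 left 10 or 8. Over all genes tested, 34.2% rose in DDC fed over normal fed samples. Tmsb4x, the main beta-thymosin, had the same order of groups as Tmsb10. It measured 269 and 350.2 TPM in DDC fed, 3170 and 3993 TPM in E18, and 40.9 and 56.1 TPM in normal fed samples. Its rise in DDC fed samples was 2.65 ± 0.28, against 5.36 ± 0.20 for Tmsb10. Gsn, gelsolin, rose by 3.18, the capping gene Capg by 3.11, the Arp2/3 subunit Arpc1b by 2.88 and Cap2, which reached 1 TPM in DDC fed samples only, by 1.10.

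**Figure D4:**
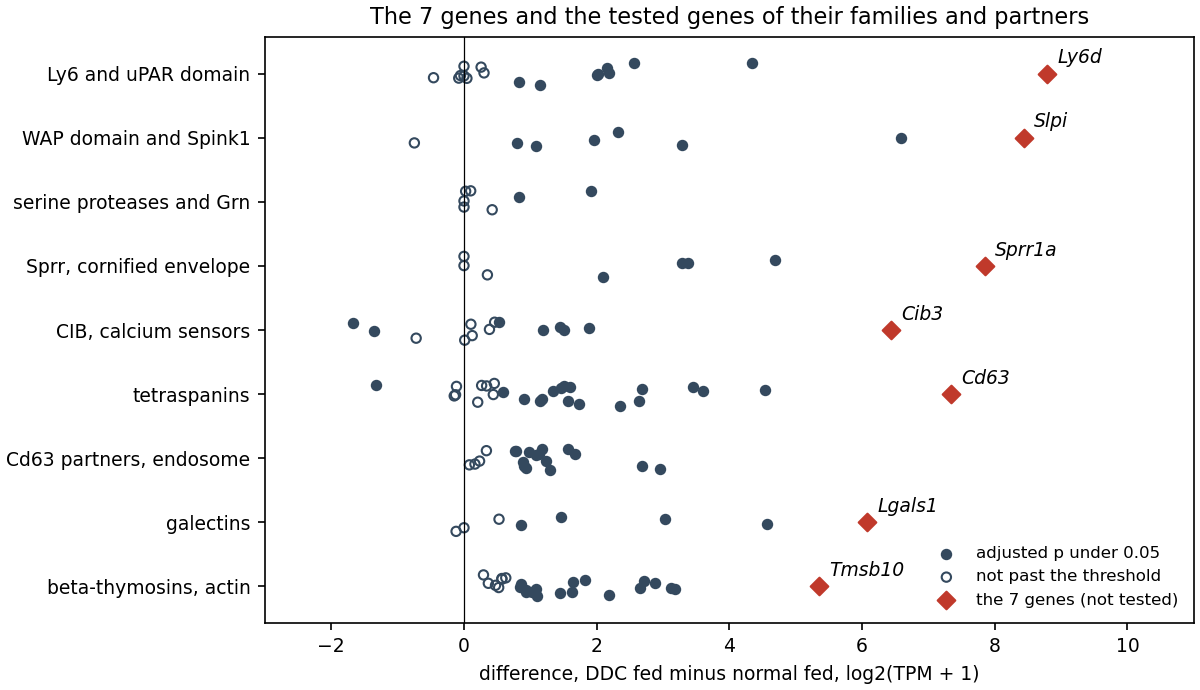
Difference between DDC fed and normal fed samples on the log2(TPM + 1) scale for the 7 genes (red diamonds, chosen on this difference and not tested) and for the tested genes of their families and partners (filled where the adjusted p is under 0.05, open otherwise). Each member lies to the right of every tested relative in its row, for example Ly6d at 8.79 and Ly6e at 4.34.

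Most hepatocyte markers were detected in all groups. Most macrophage, stellate cell, fibroblast and endothelial markers rose in DDC fed over normal fed samples, where 34.2% of all genes tested rose. Most neutrophil, B cell, T cell and erythroid markers did not pass. Against E18 samples, 5 macrophage markers were lower in DDC fed samples and 1 higher, beside 47% and 17.7% of all genes. Of stellate and fibroblast markers 6 were lower and 1 higher, and of endothelial markers 8 and 0. Bulk values cannot tell more cells of a type from more RNA per cell. The 10 hepatocyte markers summed to 32010 to 32790 TPM in DDC fed, 7461 to 11220 TPM in E18, and 55310 to 55880 TPM in normal fed samples. Alb is listed at 0 throughout, Fgb at 0 in E18 samples and Serpina1c at 0 in normal fed samples, so these sums leave out different genes. The 10 macrophage markers summed to 993 to 1238 TPM in DDC fed, 3613 to 4650 TPM in E18, and 114 to 129 TPM in normal fed samples, and all 10 rose in DDC fed samples. The stellate and fibroblast markers, of which 9 of 10 rose, summed to 329.9 to 372 TPM in DDC fed, 318 to 349 TPM in E18, and 11.6 to 25.5 TPM in normal fed samples. Their part in the rise of Lgals1, Tmsb10, Cd63 and the other members was not tested.

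Endothelial markers summed to 193 to 202 TPM in DDC fed, 549 to 558 TPM in E18, and 16.7 to 51.2 TPM in normal fed samples; 9 of 10 rose in DDC fed samples, and 5 when any DDC fed or E18 sample was left out. The cholangiocyte markers summed to 105 to 123 TPM in DDC fed, 126 to 179.7 TPM in E18, and 12.2 to 14.2 TPM in normal fed samples. Of 8 tested, 4 rose in DDC fed samples, where 34.2% of all genes tested rose. Those 4 were Spp1, Sox9, Prom1 and Cldn4. Within the list, Krt19 and Krt7 stayed at or below 0.227 TPM in DDC fed samples. The part of bile duct and endothelial cells in the rise of the members was not tested.

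Squamous epithelial markers, which bear on the epithelial reading of Ly6d and Sprr1a, summed to 3.33 to 3.71 TPM in DDC fed, 4.67 to 4.82 TPM in E18, and 3.28 to 4.68 TPM in normal fed samples. Krt5 measured 0.477 and 0.450 TPM and Krt14 was listed at 0 in the DDC fed samples. The B and plasma cell markers, which bear on Ly6d, summed to 3.31 to 4.51 TPM in DDC fed, 63.7 to 90.04 TPM in E18, and 1.03 to 1.09 TPM in normal fed samples, with 1 of 8 tested, Cd22, rising in DDC fed samples. The T and NK cell markers summed to 1.77 to 2.54 TPM in DDC fed, 70.04 to 86.5 TPM in E18, and 1.02 to 3.59 TPM in normal fed samples.

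Blood cell markers were far higher in E18 samples. Neutrophil markers, which bear on Slpi and Prtn3, summed to 3.19 to 3.52 TPM in DDC fed, 56470 to 67310 TPM in E18, and 0.373 to 0.431 TPM in normal fed samples. Erythroid markers summed to 36.7 to 36.9 TPM in DDC fed, 5997 to 11630 TPM in E18, and 27.2 to 39.3 TPM in normal fed samples. All 10 neutrophil markers and all 9 erythroid markers rose in E18 against normal fed samples, where 63% of all genes tested rose. Their part in the E18 values of Slpi, Cd63, Lgals1 and Tmsb10 was not tested.

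**Figure D5:**
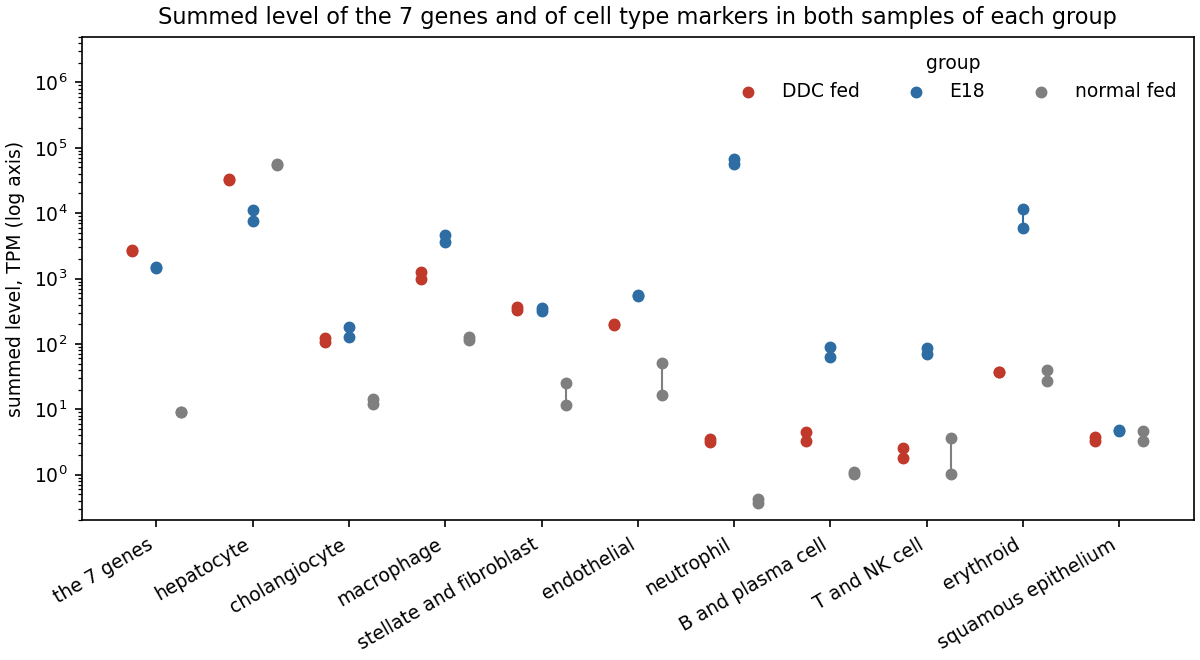
Summed level of the 7 genes and of each cell type marker list, in TPM on a log axis, with DDC fed, E18 and normal fed samples from left to right; points are the 2 samples of a group and lines join them. The 7 genes sum to 2780 and 2677 TPM in DDC fed samples, where neutrophil, B cell, T cell and squamous markers stay below 5 TPM and macrophage markers reach 993 to 1238 TPM.

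Samples of a group resembled each other, with correlations across genes of 0.991 in DDC fed, 0.986 in E18 and 0.975 in normal fed samples (genes are not independent replicates). The normal fed pair differed most, with a median absolute log2 difference of 0.372, against 0.125 in DDC fed and 0.168 in E18 samples. In sample 1 of the normal fed pair, the genes in the top quintile by exon length differed by a median of -0.522 on the log2 scale from sample 0, and those in the bottom quintile by 0. The 7 genes stayed below 3 TPM in both samples of that pair.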

How the data were processed

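RNA of FVB hepatocytes was prepared with the TruSeq Stranded mRNA kit, per the labels. The authors deposited TPM values, and each of the 6 columns sums to 1000000 over 48432 genes. Per the submitters' processing notes, the tools were STAR 2.4.2a, Cuffdiff 2.2.1, HTSeq, DESeq2, Picard 1.119, Trimmomatic and bcl2fastq 2.17.1.14, with the build GRCm38 (mm10). What made the TPM table is not given in the sources used here. It holds no counts, so depth and counting error are unknown. Columns numbered 0 and 1 were assigned to groups, not to single sample titles.

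Identifiers were matched to GENCODE M21 (48053 matched), and 24885 genes were above 0. Genes that reached 1 TPM in 2 or more of the 6 samples, 14307 in all, were tested on log2(TPM + 1), a scale that understates changes of low genes, with limma 3.58.1 (R 4.3.3; package data.table, 1.17.8). The model had 1 mean per group, 3 residual degrees of freedom per gene and variances that follow the mean, and was tested on simulated data. P-values are two-sided and Benjamini-Hochberg adjusted over all genes tested, with a threshold of 0.05. Errors of log2 differences are standard errors, and other errors are SDs over 2 samples.

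The 7 genes, the lists and the alternatives were chosen with earlier results of these data known. Named relatives are the up to 5 with the smallest adjusted p in DDC fed minus normal fed samples, not listed at 0 in both samples of a compared group, and all where a count is 5 or fewer. Ly6a, Them6, Wfdc17 and Wfdc21, Elane, Ctsg, Cib1, genes of the wider class in the text, and Krt19, Krt7, Krt5, Krt14, Fgb and Serpina1c were named after their values were seen. Figures were drawn with matplotlib 3.10.9 in Python 3.11.15 (pandas 2.3.3, numpy 2.4.6).

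The alternatives were pseudocounts of 0.1 and 5, quantile normalization, median-ratio scaling, no filter, a filter on a mean of 5 TPM, a correction for each sample's trend with exon length, only the compared groups in the fit, the replicate number as a term, and each sample left out in turn. For marker lists and named relatives they were added after the data were seen.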

Additional observations from a re-analysis of the deposited data

How the results depend on the processing

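The rise of each of the 7 genes in DDC fed over normal fed samples kept its direction under every alternative run, with log2 differences of 7.04 to 9.89 for Ly6d, 6.98 to 9.16 for Slpi, 5.79 to 9.79 for Sprr1a, 4.97 to 7.20 for Cib3, 5.91 to 8.04 for Cd63, 4.90 to 6.57 for Lgals1 and 4.25 to 5.81 for Tmsb10. Among the members and the relatives recomputed under the alternatives, the changes of sign were Ly6d (-0.256 with quantile normalization) and Sprr1a (-0.049 with median-ratio scaling, -0.901 with quantile normalization, -0.218 with the exon-length correction) in E18 minus normal fed samples, Lgals1 (0.163 with the exon-length correction, 0.350 with median-ratio scaling) in DDC fed minus E18 samples, and Wfdc15b (-0.115 with quantile normalization) and Cib1 (-0.068 with the exon-length correction, -0.297 with median-ratio scaling) in DDC fed minus normal fed samples. The cause was not tested. The count of members that fell in E18 minus normal fed samples was 1, against 0 with a pseudocount of 5 and 2 with quantile normalization.

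Over all genes, 5335 passed in DDC fed minus normal fed samples and 2755 to 8949 with 1 sample left out (2815 and 2755 without DDC fed samples 0 and 1, and 8949 without normal fed sample 0). In E18 minus normal fed samples 10835 passed, and 8369 to 11847 with 1 sample left out. In DDC fed minus E18 samples 9255 passed, and 6118 to 11185 with 1 sample left out, the lowest without E18 sample 1. A sample left alone in its group was assumed to vary like the other groups.

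With the replicate block, 5600, 11078 and 9487 genes passed in these comparisons. The samples share only a number: deviations of same-numbered samples correlated over 14307 genes at 0.233 (DDC fed and normal fed), 0.139 (E18 and normal fed) and 0.061 (DDC fed and E18). With 2 samples a group and unknown depth, values near or below 1 TPM are the least certain.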
